A study of Homo sapiens with 3 samples.

Results

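MALAT1 and NEAT1 are long noncoding RNAs of the nucleus that are transcribed from neighbouring genes on the + strand of chromosome 11. Binding of the splicing factor RBM17 along these 2 RNAs was examined in K562, an established cell line from a chronic myelogenous leukemia. The members are the replicate 2 clusters whose name carries the Ensembl gene of MALAT1 (ENSG00000251562) or NEAT1 (ENSG00000245532), together with the replicate 1 clusters and reproducible peaks that lie on the same strand within the span of those clusters. This gave 198 of 119066 clusters in replicate 2, 200 of 137095 clusters in replicate 1 and 1 of 866 reproducible peaks. MALAT1 had 134 clusters in replicate 2, 114 in replicate 1 and no reproducible peak (0 of 866), and NEAT1 had 64, 86 and 1.

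In eCLIP, ultraviolet light joins a protein to the RNA it touches, the protein is immunoprecipitated, and the RNA fragments that come with it are sequenced. The groups are RBM17 eCLIP, with 2 replicates named eCLIP1 and eCLIP2 in the labels and called replicates 1 and 2 here, and 1 size-matched input. All came from K562 cells with no treatment named, irradiated at 254 nm with 400 mJ/cm2. For the immunoprecipitation a mixture of RBM17 antibodies was used, and the input is 2% of the sample, set aside before the washes and taken from the same gel region between 50 and 125 kDa. K562 is a single cell line, and the shared input is the only sample that either replicate can be set against. It was taken after the antibody had been added, and no sample without the antibody is named. For replicate 1 each cluster has a log2 fold and a −log10 p over the input but no reads, so its depth is unknown. For replicate 2 each cluster has the p of the peak caller and, at the end of its name, a whole number taken here as its reads, with no value relative to the input. No fold has a replicate error, and the values below are descriptions of these libraries.

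RBM17, also called SPF45, is a spliceosomal protein that takes part in the choice of 3′ splice sites. MALAT1 is retained in nuclear speckles, the bodies in which splicing factors are stored and modified. NEAT1 is made in a short polyadenylated form and a long form that share their 5′ end. The long form is the scaffold of paraspeckles, bodies that form around it together with proteins such as NONO and SFPQ. Both RNAs are largely unspliced, so that a position in the genome is close to a position in the RNA.

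All positions are as deposited and were taken to be in hg19, from the reach of positions on chromosome 1. Replicate 2 clusters of MALAT1 ran from 65268112 to 65273498 on chromosome 11, a span of 5387 nt. The RefSeq gene is 8779 nt long in GRCh38.p14, so the span equals 61.4% of that length and misses 3392 nt. The clusters of NEAT1 ran from 65190310 to 65212102, a span of 21793 nt that is 950 nt shorter than the long annotated transcript NEAT1-202 (22743 nt in hg38). Positions within each RNA are given as the distance from the 5′ end of its span, counted from 1, because no annotation of the hg19 build was used. No other gene had a replicate 2 cluster in either span, and neither list had a cluster on the opposite strand there.

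MALAT1 had the most reads of all 10872 genes with a replicate 2 cluster. Its clusters summed to 161444 reads, which is 12.1% of the 1336569 reads in all clusters, and was 2.44 times the sum of the next gene. The exact Clopper-Pearson 95% interval was 12.0 to 12.1%, which takes the reads as distinct and independent and holds no replicate error. NEAT1 ranked 11 with 8941 reads, or 0.669% (interval 0.655 to 0.683%). Per nucleotide covered by clusters, MALAT1 held 59.4 reads and NEAT1 3.45, which placed them at ranks 12 and 62. A MALAT1 cluster held 450 to 4454 reads with a median of 932.5, and a NEAT1 cluster 25 to 485 with a median of 96.5, against a median of 5 over all clusters. A cluster of 3 nt in MALAT1 held 581 reads, and 90 of the 134 clusters began where another ended. Whether a read that crosses such an edge was counted in each cluster is not given in the sources used here, so these are sums over clusters and not counts of distinct reads. Both intervals may therefore be too narrow. RNA levels were not analysed here, so a more abundant RNA and a more often bound one cannot be told apart by reads.

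Over the whole span, the clusters were short and dense in MALAT1 and spread out in NEAT1. In replicate 2 the median cluster length was 17 nt in MALAT1 and 36.5 nt in NEAT1, against 36 nt over all clusters. In MALAT1, clusters covered 48.5% of the span in replicate 1 and 50.5% in replicate 2, a mean of 49.5% ± 1.39 (SD, n = 2). In NEAT1 they covered 15.0% and 11.9%, a mean of 13.4% ± 2.20 (SD, n = 2). Over whole spans, the difference between the RNAs was thus larger than the spread between the replicates in each of them. It did not hold along all of NEAT1. In the first 3684 nt of its span, clusters covered 47.9% in replicate 1 and 48.1% in replicate 2, close to the shares of MALAT1. Merging clusters that touch left 45 and 44 blocks in MALAT1 for replicates 1 and 2, and 62 and 37 in NEAT1.

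Most clusters of either RNA recurred in the other replicate. In MALAT1, 107 of 114 replicate 1 clusters overlapped a replicate 2 cluster by 1 bp or more (93.9%), and 122 of 134 replicate 2 clusters overlapped a replicate 1 cluster (91.0%). For NEAT1 the numbers were 54 of 86 (62.8%) and 55 of 64 (85.9%). Over all clusters the shares were 26.3% for replicate 1 and 31.9% for replicate 2. These shares are not corrected for the part of each span that the other list covers, given above. Exact edges recurred less often. In MALAT1, 54 of 134 replicate 2 clusters (40.3%) had a replicate 1 cluster with both edges within 5 nt of their own, and in NEAT1 16 of 64, against 3.81% of all replicate 2 clusters.

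NEAT1 reads were concentrated near its 5′ end. The first 3684 nt of the span, a stretch as long as the annotated short transcript NEAT1-201, make up 16.9% of it and held 42 of the 64 replicate 2 clusters and 7732 of the 8941 reads (86.5%). The stretch was set by the length of the transcript in hg38, and since the span may begin up to 950 nt inside the long transcript, its 3′ edge is approximate. Within it the first 1000 nt alone held 47.0% of the reads and the next 1000 nt 26.7%. The 42 clusters ranged from 51 to 485 reads, and the 2 largest lay at 96 to 156 nt (485 reads) and 1043 to 1103 nt (470 reads). They were the only NEAT1 clusters with a peak caller p listed as 0.

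The following 6370 nt, from 3685 to 10054 nt, were almost without replicate 2 clusters. A single cluster of 51 reads lay there, and the windows from 4001 to 7000 nt and from 8001 to 10000 nt held none. A separate group of 18 clusters lay between 10055 and 12765 nt (chromosome 11, 65200364 to 65203074), in the middle of the long form and beyond the length of the short one. It held 1055 reads (11.8%), with 25 to 171 reads per cluster, and its largest cluster lay at 11313 to 11410 nt. The last 9028 nt held 3 clusters with 31 to 38 reads. Per nucleotide of each stretch, the reads were 2.10 in the first, 0.00801 in the second, 0.389 in the middle group and 0.0114 in the last. The boundaries of the middle group were set after the clusters had been seen.

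**Figure D1:**
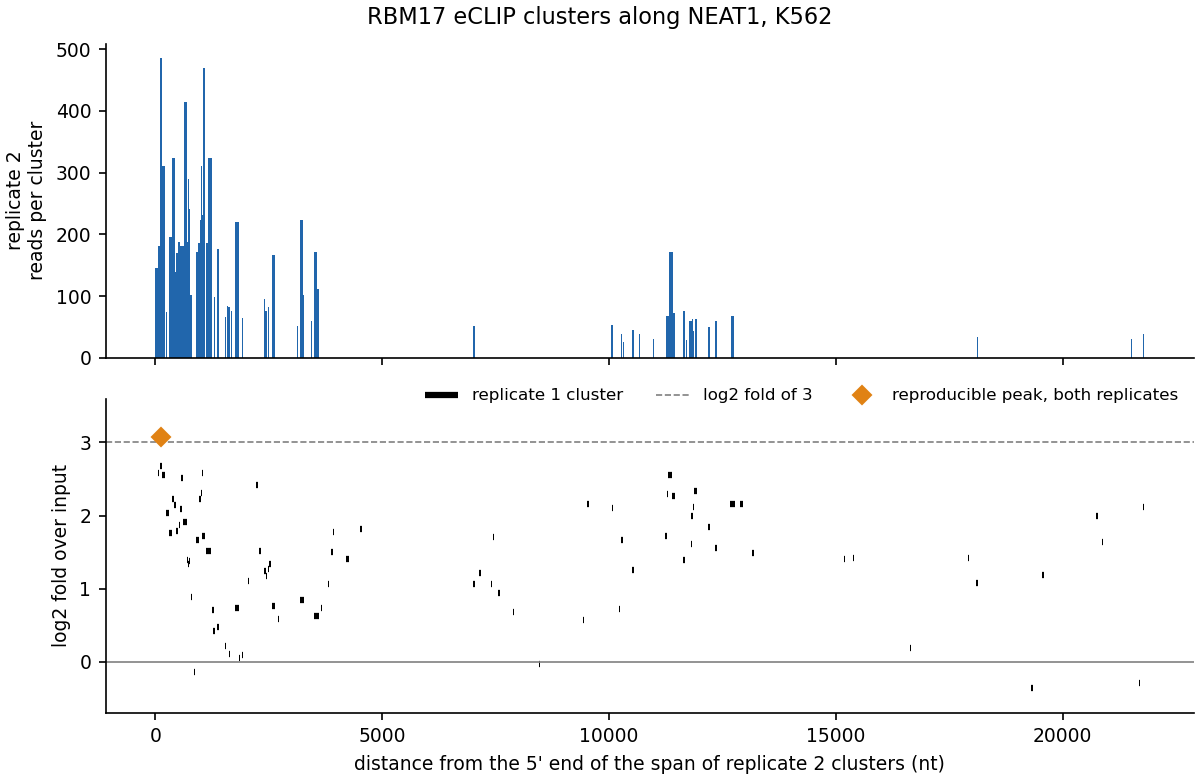
RBM17 eCLIP clusters along NEAT1, with the distance from the 5′ end of the span in nt on the x axis. The upper panel gives the reads of each replicate 2 cluster and the lower panel the log2 fold over the input of each replicate 1 cluster, with the reproducible peak as a diamond at 3.08. Reads fall into a tall 5′ group of up to 485 reads and a lower middle group of up to 171, while replicate 1 folds above 2 occur in both groups.

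The fold over the input did not follow the reads along NEAT1. Replicate 1 clusters in the first 3684 nt had a median log2 fold of 1.38 (43 clusters, −0.15 to 2.68), whereas the 16 clusters of the middle group had a median of 1.92 (0.72 to 2.55). The quartiles were 0.74 and 2.06 in the first stretch and 1.59 and 2.18 in the middle group, so the ranges overlap, and 1 library with folds allows no test of the difference. The 14 clusters between them had a median of 1.14 and the 13 at the 3′ side a median of 1.41. By windows of 1000 nt, the median log2 fold was 1.91 in the first, 0.59 in the second, and highest at 2.11 from 11001 to 12000 nt and 2.00 from 12001 to 13000 nt. As means weighted by cluster length, the folds were 2.00 in the first window, 1.01 in the second and 2.14 from 11001 to 12000 nt. Across the 10 windows with clusters in both replicates, this weighted mean was set against the logarithm of the replicate 2 reads per covered nucleotide. Pearson’s r was −0.03 and Spearman’s rho −0.08. Neighbouring windows share libraries and reads, and no p is given.

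The only reproducible peak of these RNAs lay near the 5′ end of NEAT1, at 65190405 to 65190465 on chromosome 11, or 96 to 156 nt into the span. Each reproducible peak carries a pair of values, read here from their range as a log2 fold over the input and a −log10 p, although the study's own table heads them as log2 folds of the replicates. Whether they stand for both replicates or for replicate 2 is not given in the sources used here, and 0 of the 866 folds equal that of a replicate 1 cluster to 5 decimals. On that reading the log2 fold was 3.08 (8.43-fold) and the −log10 p was 62.1. This −log10 p was the highest of all 866 reproducible peaks, of which the next reached 57.2 and the median was 5.54. The fold was among the lowest, since 32 of the 866 peaks had a smaller one, the lowest being 3.01 and the median 3.80. In replicate 2 a cluster with exactly this interval held 485 reads. In replicate 1 the cluster at 65190404 to 65190463, which shares 59 of the 61 nt, had a log2 fold of 2.68 and a −log10 p of 59.3. Its fold in replicate 1 alone is therefore under the study’s cutoff of 3, as it was for 70 of the 866 peaks (8.08%).

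Folds beside the peak were close to it. Upstream, the replicate 1 cluster at 54 to 94 nt had a log2 fold of 2.59, and the replicate 2 cluster at 62 to 95 nt held 181 reads. Downstream, the cluster at 155 to 206 nt had a log2 fold of 2.56, and replicate 2 had 311 reads at 157 to 209 nt. Among the other high folds of NEAT1 were 2.59 at 1032 to 1041 nt, 2.55 at 11308 to 11396 nt and 2.52 at 566 to 621 nt. A fold of 2.42 at 2217 to 2260 nt had no replicate 2 cluster under it. None of these reached 3, and 22 of the 86 stood at 2 or above.

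MALAT1 reads were highest in the 3′ part of its span. The windows of 500 nt from 3501 to 5000 nt held 18.6%, 20.1% and 18.2% of its replicate 2 reads, whereas none of the other 8 windows held more than 7.03%. The lowest share, 2.11%, lay at 2501 to 3000 nt. With each span divided into 4 equal parts, the 5′ part held 16.2% of the reads in MALAT1 and 86.5% in NEAT1. The MALAT1 span equals 61.4% of the RefSeq length, and replicate 1 had 7 clusters upstream of it. Its parts are therefore not parts of the whole RNA, and both shares do not describe like stretches. The largest MALAT1 clusters abutted each other at 3965 to 4004 nt (4454 reads) and 4005 to 4058 nt (4236 reads), and the third, of 3546 reads, lay at 4538 to 4581 nt. Further clusters of 2910 and 3243 reads lay at 4125 to 4157 nt and 4166 to 4183 nt.

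**Figure D2:**
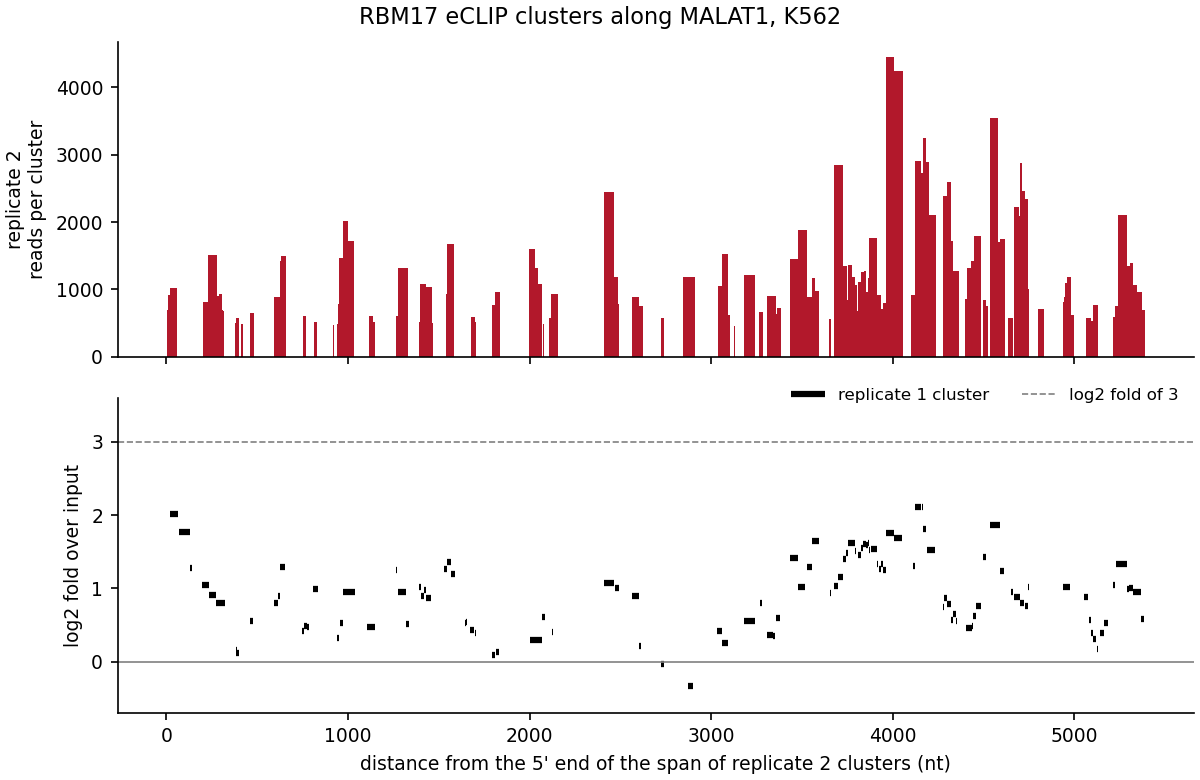
RBM17 eCLIP clusters along MALAT1, drawn as for NEAT1, with the distance from the 5′ end of the span in nt on the x axis. Replicate 2 reads per cluster (upper panel) reach 4454 near 4000 nt, and replicate 1 log2 folds (lower panel) stay between −0.34 and 2.11, all under the dashed line at 3.

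The highest replicate 1 folds of MALAT1 lay at those same 3′ clusters and at the 5′ edge of the span. The log2 fold was 2.11 at both 4124 to 4158 nt (chromosome 11, 65272235 to 65272269) and 4159 to 4166 nt, 2.02 at 20 to 64 nt and 1.87 at 4537 to 4588 nt. At 3965 to 4004 nt, where the replicate 2 reads were highest and the intervals of both replicates are the same, it was 1.75. Of 18 clusters at a log2 fold of 1.5 or more, only those at 20 to 64 nt and 72 to 130 nt lay outside the stretch from 3555 to 4588 nt. High reads did not always come with a high fold, as the replicate 2 cluster of 2879 reads at 4702 to 4713 nt lay under replicate 1 clusters with log2 folds of 0.81 and 0.88. The lowest folds were −0.34 at 2875 to 2902 nt and −0.03 at 2723 to 2739 nt, in the window with the fewest reads.

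The median log2 fold was highest from 3501 to 4000 nt, at 1.49 over 21 clusters, and lowest from 2501 to 3000 nt, at 0.09 over 4. In the window with the most reads, 4001 to 4500 nt, the median was 0.77 over 16 clusters. The mean there weighted by cluster length was 1.20. Across the 11 windows of MALAT1, the mean fold weighted by cluster length was set against the logarithm of the reads per covered nucleotide. Pearson’s r was 0.75 and Spearman’s rho 0.56. Over overlapping clusters of the 2 replicates, Spearman’s rho was 0.38 in MALAT1 (107 pairs) and 0.10 in NEAT1 (54 pairs). Among the 216 genes with at least 20 such pairs the median rho was 0.10, with quartiles of −0.12 and 0.30, and 38 genes had a higher value than MALAT1. These are descriptions across clusters of 1 RNA that share libraries and depth.

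**Figure D3:**
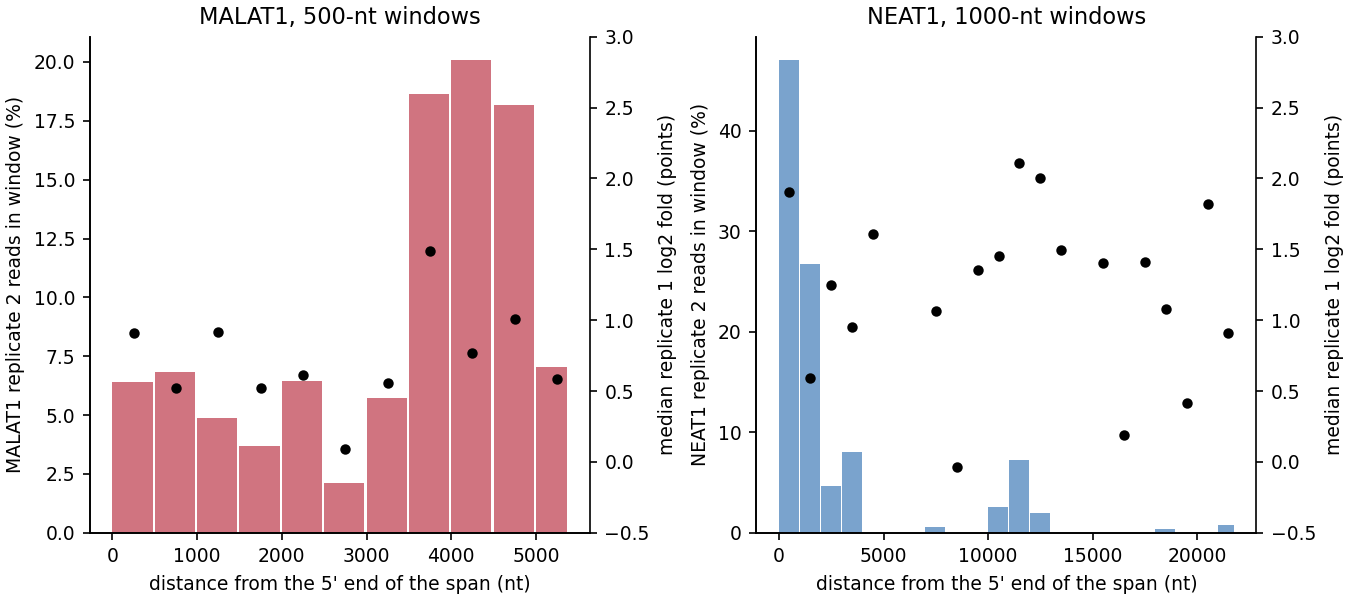
Share of each RNA’s replicate 2 reads (bars, left axis, %) and median replicate 1 log2 fold over the input (points, right axis) in windows of 500 nt for MALAT1 and 1000 nt for NEAT1, by distance from the 5′ end of the span. In MALAT1 the window from 3501 to 4000 nt is high in both, whereas that with the most reads, 4001 to 4500 nt, has a median of 0.77. In NEAT1 the reads stand at the 5′ end while the highest median fold, 2.11, lies at 11001 to 12000 nt.

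At the replicate 1 clusters of both RNAs, the fold over the input was mostly above 0, by a small factor. Folds exist only at clusters called in the eCLIP library, which favours folds above 0 in advance. Stretches of the RNAs without a cluster have no value, so these folds do not describe the whole RNAs. The median replicate 1 log2 fold was 0.90 in MALAT1 (1.87-fold, quartiles 0.52 and 1.29) and 1.45 in NEAT1 (2.74-fold, quartiles 0.90 and 2.02). The fold was below 0 in 2 of 114 clusters of MALAT1 (1.75%) and 4 of 86 of NEAT1 (4.65%), against 11.4% of all replicate 1 clusters. A log2 fold of at least 3 with a −log10 p of at least 3 was found in 0 of 114 and 0 of 86 clusters, against 5.35% of all replicate 1 clusters. The highest were 2.11 in MALAT1 (4.32-fold) and 2.68 in NEAT1 (6.43-fold). With a log2 fold of at least 1, a threshold chosen after the folds were seen, 48 clusters of MALAT1 (42.1%) and 59 of NEAT1 (68.6%) passed with a −log10 p of at least 3, against 9.2% of all replicate 1 clusters. Over the whole replicate 1 list the median log2 fold was 1.51, above that of both RNAs, and the median −log10 p was 0.49. The medians of the list thus pass a log2 fold of 1 but not a −log10 p of 3. The contrast with 9.2% therefore involves the p and cannot be read as higher folds in these RNAs. None of these shares, nor those below 0, was matched for depth.

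The p over the input was extreme in MALAT1 although the folds were modest. Its median −log10 p was 36.0, and 24 of its 114 clusters stood at 400, the limit of the list, with log2 folds between 1.07 and 2.11. Of all replicate 1 clusters 0.097% stood at that limit, 133 in number, of which MALAT1 held 24. The next lower −log10 p in MALAT1 was 83.2, so the value of 400 gives no size. In NEAT1 the median −log10 p was 6.51, the highest was 59.3, and no cluster stood at the limit (0 of 86). A −log10 p of at least 3 was reached by 106 of 114 clusters in MALAT1 and 63 of 86 in NEAT1, so that it was the cutoff on the fold that none of them passed.

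**Figure D4:**
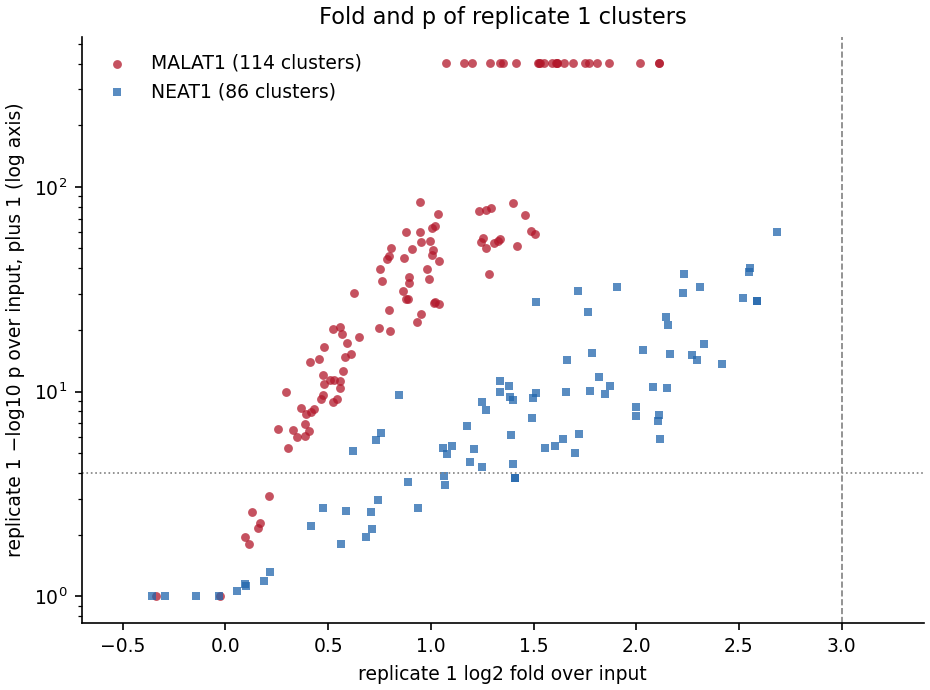
Replicate 1 log2 fold over the input (x axis) against −log10 p plus 1 (y axis, log scale) for the 114 clusters of MALAT1 (circles) and the 86 of NEAT1 (squares), with dashed and dotted lines at a log2 fold of 3 and a −log10 p of 3. Of the MALAT1 points 24 stand at 400, the highest NEAT1 point stands at 59.3, and no point lies to the right of the dashed line.

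Set beside other genes, the median fold of neither RNA was extreme. The comparison took the 5905 genes with at least 3 replicate 1 clusters inside their span and no other. Among these, the median of NEAT1 was at the 50.6 percentile and that of MALAT1 at the 30.4 percentile. Many of these genes are shallow, and folds of small clusters scatter widely. Among the 73 of them with at least 1000 replicate 2 reads, whose median was 1.14, 30 had a higher median fold than NEAT1 and 45 a higher one than MALAT1. Of these 73 genes 34 had a reproducible peak, against 4.06% of all genes with a replicate 2 cluster. Of the 20 genes with the most reads, 4 had a reproducible peak, NEAT1 among them. Among 150 lncRNA genes of GENCODE v44 the median of the gene medians was 0.62, and 7 had a reproducible peak. NEAT1 ranked 21 and MALAT1 48 by median fold among these, and 4 and 1 by reads.

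**Figure D5:**
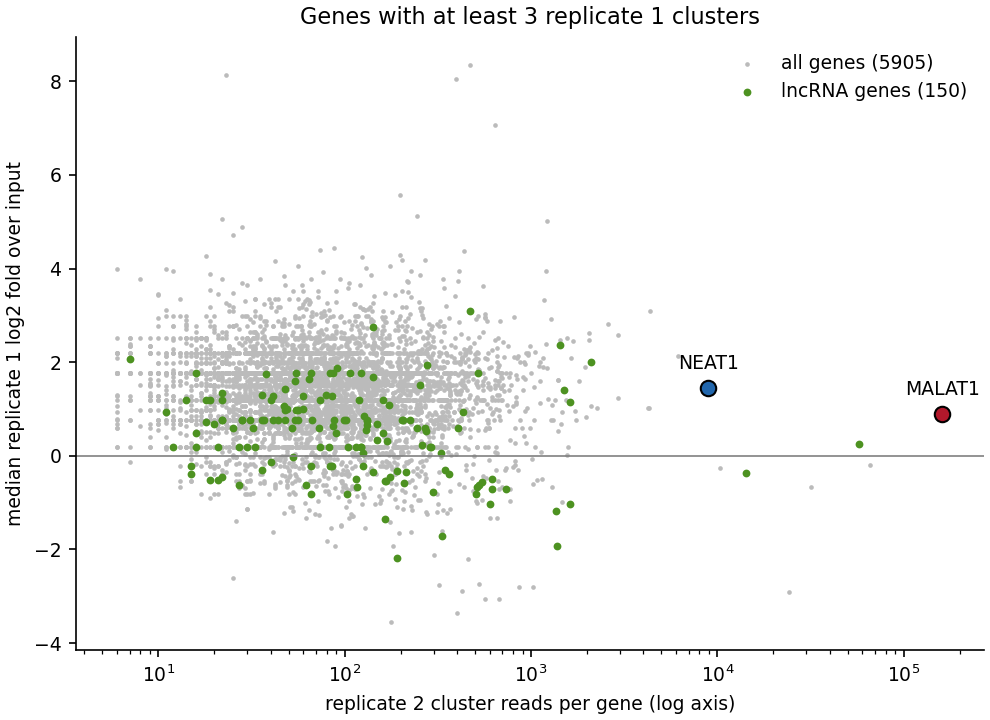
Replicate 2 cluster reads per gene (x axis, log scale) against the median replicate 1 log2 fold over the input (y axis) for 5905 genes with at least 3 replicate 1 clusters, with 150 lncRNA genes in green. MALAT1 (161444 reads, 0.90) and NEAT1 (8941 reads, 1.45) lie at the far right, above 0 and within the range of folds of the other genes.

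The genes nearest to each RNA in log10 reads and median fold, each divided by its SD over the 1862 genes with at least 20 replicate 1 clusters, differed in kind. The nearest to NEAT1 was OGT, which encodes the enzyme that adds O-linked N-acetylglucosamine to proteins, with 6111 reads, a median log2 fold of 2.13 and a reproducible peak. It was followed by NUP214, which encodes a nuclear pore protein (4274 reads, 1.01), and MAT2A, which encodes a methionine adenosyltransferase (2926 reads, 1.23). MALAT1 had no close neighbour. The nearest was the mitochondrial ribosomal RNA MT-RNR2 at a distance of 1.76 SD (66167 reads, −0.20), then NEAT1 at 3.31 SD and OGT at 4.00 SD, whereas OGT lay 0.989 SD from NEAT1.

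Of 14 other noncoding RNAs, 10 had a replicate 2 cluster, and 1 of them, MIR17HG, the host transcript of the miR-17-92 microRNA cluster, had a reproducible peak. The middle value of the gene medians of the log2 fold was 0.30 in the 9 with at least 3 replicate 1 clusters, and the median was above that of MALAT1 in 2 and above that of NEAT1 in 1. Those above MALAT1 were MIR17HG, with a median log2 fold of 2.36, and GAS5, a host of snoRNAs, with 1.14 (1611 reads, highest log2 fold 2.72). SNHG1, another snoRNA host, had 1379 reads and a median of −1.92, and NORAD, a cytoplasmic RNA that binds Pumilio proteins, had 164 reads and −1.34. TUG1 (0.30), KCNQ1OT1 (0.77), OIP5-AS1 (−0.35) and FTX (0.56) had between 31 and 141 reads, and no cluster of theirs reached a −log10 p of 3. TERC had 113 reads and no replicate 1 cluster that lay inside its span and no other. A cluster that also lay inside the span of another gene was counted for neither gene. RN7SK, named 7SK in the symbol table, is a nuclear RNA that holds back a kinase of transcription elongation, and it had more reads than NEAT1, 10360, with a median log2 fold of −0.27. RMRP, RPPH1, RN7SL1 and RN7SL2 had no replicate 2 cluster under the identifiers matched to these symbols. Older identifiers that the symbol table does not hold were not resolved, so that these RNAs may be in the list under another identifier.

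Transcripts of proteins that assemble with NEAT1 in paraspeckles held fewer reads than NEAT1, and 6 of them had replicate 1 clusters past both cutoffs, which NEAT1 and MALAT1 did not have. Such a cluster was present in 26.3% of the 5905 genes with at least 3 replicate 1 clusters, and in 42 of 55 protein coding genes with at least 1000 replicate 2 reads. Of the 10 listed genes of paraspeckle proteins, 9 had a replicate 2 cluster and 6 a reproducible peak, against 4.06% of all genes. A reproducible peak was present in 409 of the 5905 genes and in 30 of the 55. The listed genes held 136 to 1113 reads, so none of these shares is matched to them in depth. Among the 8 listed genes with at least 3 replicate 1 clusters, the gene medians of the log2 fold lay between 0.77 and 2.94. Their middle value was 1.56, and 5 exceeded that of NEAT1. For HNRNPH3, 23 of 49 clusters passed a log2 fold of 3 and a −log10 p of 3, the highest log2 fold being 5.58. HNRNPK had 11 of 25, with a highest log2 fold of 5.34. The core paraspeckle proteins NONO and SFPQ had 6 of 26 and 10 of 50, with median log2 folds of 1.60 and 1.13 and highest ones of 5.19 and 4.89. EWSR1 had 5 of 41 and DAZAP1 3 of 52. Neither PSPC1 (0 of 43) nor TARDBP (0 of 15) had a cluster past both thresholds. RBM14 had no replicate 1 cluster that lay inside its span and no other, and TAF15 had no replicate 2 cluster. No cluster of NEAT1 or MALAT1 passed these thresholds in replicate 1, at 8941 and 161444 reads.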

How the data were processed

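The authors ran an existing eCLIP pipeline on the reads of RBM17 eCLIP in K562 cells, and the submitters' processing notes name cutadapt and STAR. The clusters of replicate 1 were deposited with their log2 fold relative to the size-matched input and the −log10 p of that comparison. The clusters of replicate 2 were deposited before that comparison, with a p-value from peak calling and, in the cluster name, an Ensembl gene, a cluster number and a whole number that is taken as a read count, which the authors do not define in the sources used here. The deposited reproducible peaks carry a pair of unnamed values, taken from their range as a −log10 p and a log2 fold. The peak caller and the genome build are not given in the sources used here. Positions were taken as hg19, because those of chromosome 1 reach 249211903 and the chromosome is 248956422 nt long in hg38.

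Intervals were overlapped on the same strand by at least 1 bp in Python 3.11.15 (numpy 2.4.6, pandas 2.3.3, scipy 1.17.1, and matplotlib 3.10.9 for figures). Functions were tested on simulated data. A replicate 1 cluster counted for a gene when it lay inside the span of that gene's replicate 2 clusters and, for tables of all genes, of no other gene (82.5% of clusters). Intervals repeated in replicate 2 (4218 lines, none of MALAT1 or NEAT1) counted once in the total of reads. Of 10872 gene identifiers, 10423 matched a symbol in a table of Ensembl gene names. The replicates carry the numbers 1 and 2 in the sample descriptions, used here, and 2 and 3 in the titles. No test was run, because folds exist per cluster for 1 library only. The members, gene lists and thresholds were chosen with earlier results of these data known. The genes named were MALAT1 and NEAT1, a list of 14 noncoding RNAs, 10 paraspeckle protein genes of a list of 11 (the other is not reported here and is left out of the counts of that list), and the 3 genes nearest each RNA. Sequences under the clusters were not analysed here, since they need an hg19 genome. Alternatives were other thresholds on fold and p, other rules of overlap and placement, a minimum of 10 reads, and leaving out a replicate.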

Additional observations from a re-analysis of the deposited data

Results flagged for a closer look

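Upstream of the MALAT1 span, outside the intervals compared above, replicate 1 had 7 further clusters on the same strand within 5000 nt, where replicate 2 had none. They lay between 65266545 and 65268108 on chromosome 11, from 3 to 1567 nt before the span, with log2 folds of 0.12 to 1.72 and −log10 p of 0.76 to 400. A log2 fold of at least 1 with a −log10 p of at least 3 was found in 4 of them. They are listed here because they lie in a stretch that the replicate 2 span leaves out. A further cluster, at 65268109 to 65268130 with a log2 fold of 1.91, crossed the 5′ edge of the span. The lowest MALAT1 cluster of replicate 2 held 450 reads, and its part in the difference between the lists was not tested.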

How the results depend on the processing

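Of 44 alternatives over 20 results, 13 moved the value beyond its interval or, for counts, by over 1.5 times. Among the other 31 are some that could not move it, such as stricter cutoffs on a share already at 0 and a minimum of 10 reads where the lowest cluster held 25, and these say nothing about stability. Clusters of NEAT1 in replicate 1 fell from 86 to 25 at p of at most 1e-10. With a log2 fold of at least 1.5 the passing share went from 42.1% to 15.8% in MALAT1 and from 68.6% to 47.7% in NEAT1, and with a −log10 p of at least 5 it was 54.7% in NEAT1, both chosen after seeing the data. The median log2 fold of NEAT1 went from 1.45 to 1.72 over clusters with a −log10 p of at least 3. On the opposite strand the shared clusters came to 0% for both RNAs and both replicates. That outcome was fixed, since neither list had a cluster on the opposite strand in either span. These alternatives are among the 13 and say nothing about stability. The share of replicate 2 reads was 11.7% for MALAT1 and 0.651% for NEAT1 with every line counted, and 17.8% and 0.988% over clusters of at least 10 reads, in each case because the total changes. Leaving out a replicate gave a covered share of 48.5 to 50.5% in MALAT1 and 11.9 to 15.0% in NEAT1. No paired analysis was possible because the input has no file of its own here and no test was run. Depth is known for replicate 2 only, and its MALAT1 clusters begin at 450 reads.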

Other observations

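NEAT1 had replicate 1 clusters just beyond its span. A cluster ending 11 nt before it had a log2 fold of 1.59 and a −log10 p of 6.54, and 3 clusters lay 93 to 862 nt past its 3′ end with log2 folds of 0.81 to 2.44. Of all 866 reproducible peaks, 314 had a smaller log2 fold in the best overlapping replicate 1 cluster than in the value of the peak, as the NEAT1 peak did.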
